A study of Mus musculus with 2 samples.

Results

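The dystrophin glycoprotein complex was followed through 8 of its genes, taken from the deposited expression table by their symbols: dystrophin (Dmd) and its paralogue utrophin (Utrn), dystroglycan (Dag1), the sarcoglycan genes Sgca, Sgcb, Sgcd and Sgce, and sarcospan (Sspn). All 8 were in the table of 23236 rows, and all 8 were among the 11751 genes whose mean over the libraries was at least 1 FPKM. FPKM is the number of fragments scaled to transcript length and library size, so that levels can be compared between genes. The study sequenced polyA RNA of activated satellite cells, the stem cells of skeletal muscle, isolated from neonatal mice and grown as primary myoblasts on Matrigel with serum and bFGF. In the Pax7 KO, the gene of the satellite cell transcription factor Pax7 was deleted with the mouse lines Pax7CreER/+ and Pax7flox/flox and tamoxifen at 75 µg per g of body weight, begun at day 5 and given on 5 days, so that Cre was driven by Pax7 itself. The other group was WT, and the labels do not say which alleles it carried or whether it received tamoxifen. Each genotype had 1 library, and the sources used here do not give the number of animals behind a library. Every difference below is therefore one between 2 libraries, without a spread between replicates, a test or a p-value.

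The complex spans the muscle membrane. Dystrophin binds actin inside the cell and dystroglycan at the membrane, and dystroglycan, once its extracellular part carries the right sugars, binds laminin in the basal lamina. The sarcoglycans and sarcospan form a subcomplex that steadies this link, and loss of dystrophin or of several sarcoglycans causes muscular dystrophy. In activated satellite cells dystrophin is known to take part in setting cell polarity before an asymmetric division, while most of the complex is assembled only as muscle fibres mature. Alpha-sarcoglycan, the product of Sgca, is restricted to striated muscle, and its paralogue epsilon-sarcoglycan, the product of Sgce, is found in many tissues.

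The log2 ratio used here is the log2 of the Pax7 KO level over the WT level, with 1 FPKM added to each; the addition shrinks the ratio of genes with low levels. The median gene of mean FPKM 1 or more had a log2 ratio of 0.42, so each ratio is also given relative to that gene, which means after subtracting 0.42. The steps between low values placed 1 fragment at a depth of about 21100000 fragments in Pax7 KO and 25200000 in WT. From these steps and transcript lengths, fragments per gene were estimated, and they give 95% counting intervals for the log2 ratio without the added 1. Such intervals are approximate and cover counting error only, not differences between cultures or animals. On that scale the median gene was at 0.50. Pax7, the targeted gene, was at 0.769 FPKM in Pax7 KO and 3.21 FPKM in WT, 4.17-fold lower in Pax7 KO.

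Markers of several other cell types were present beside the myogenic ones in both libraries. Of 7 myogenic markers, all detected in both libraries, 4 were at least 2-fold lower in Pax7 KO, against 0.689% of all genes, and the levels of the 7 summed to 121 FPKM in Pax7 KO and 262 FPKM in WT. The 9 smooth muscle and pericyte markers summed to 969 FPKM in Pax7 KO and 878 FPKM in WT, and 6 endothelial markers to 613 FPKM in Pax7 KO and 311 FPKM in WT. The 6 fibroblast markers summed to 249 FPKM in Pax7 KO and 156 FPKM in WT, the 5 adipocyte markers to 1031 FPKM in Pax7 KO and 200.3 FPKM in WT, and the 4 Schwann cell markers to 52.1 FPKM in Pax7 KO and 35.5 FPKM in WT. The 4 macrophage markers summed to 11.3 FPKM in Pax7 KO and 9.36 FPKM in WT, nearly all of it from Cd68, while Csf1r, Emr1 and Ptprc were each below 1 FPKM in both libraries and lower in Pax7 KO. The 2 keratinocyte keratins summed to 38.7 FPKM in Pax7 KO and 0.708 FPKM in WT. Single genes held much of some sums. Fabp4 of the adipocyte markers was at 899 FPKM in Pax7 KO and 179 FPKM in WT. Acta2 of the smooth muscle markers was at 642 FPKM in Pax7 KO and 626 FPKM in WT. Des of the myogenic markers was at 67.6 FPKM in Pax7 KO and 75.8 FPKM in WT. No marker of these lists was at the lowest listed value in either library. Many of the cell types share genes of the complex, utrophin and Sgce among them. In such bulk samples, fewer cells of a type and less RNA per cell cannot be told apart, and the part of cell makeup in the values below was not tested.

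Most genes of the complex had ratios close to that of the median gene, and Sgca had the lowest by far. As deposited, 7 of the 8 genes were higher in Pax7 KO, as were 88.6% of all genes, so that this count is close to the background. At a limit of 2-fold, which is 1 in size on the log2 scale, Sgca alone was lower, as were 0.689% of all genes. Sgca reached the mean of 1 FPKM only through WT, where it was high, so that it had to differ to be counted; the other 7 were above 1 FPKM in both libraries. None of the 8 was at least 2-fold higher, against 5.06% of all genes. The median log2 ratio of the 8 genes was 0.37, beside 0.42 for all genes. Relative to the median gene, 2 lay above it (Sgcd and Sgce) and 6 below. That split depends on the added 1 FPKM, since without it Sspn also lay above the median gene, by 0.15. Relative to the median gene, 1 of the 8 was still at least 2-fold lower, against 1.45% of all genes. None was at least 2-fold higher, against 1.35%. Without the added 1 FPKM, 1 of the 8 was at least 2-fold lower (Sgca), against 0.703% of all genes. At a 1.5-fold limit, 1 was lower, against 1.43% of all genes, and 2 were higher, Sgcd and Sgce, against 30.0%. The authors' deposited table holds 1 of the 8 in its lower list, against 2.49% of all genes, and none in its higher list, against 5.20%. Between the quartiles of all genes, at log2 ratios of 0.21 and 0.64, lay 5 of the 8: Sgcb, Dmd, Dag1, Utrn and Sspn.

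**Figure D1:**
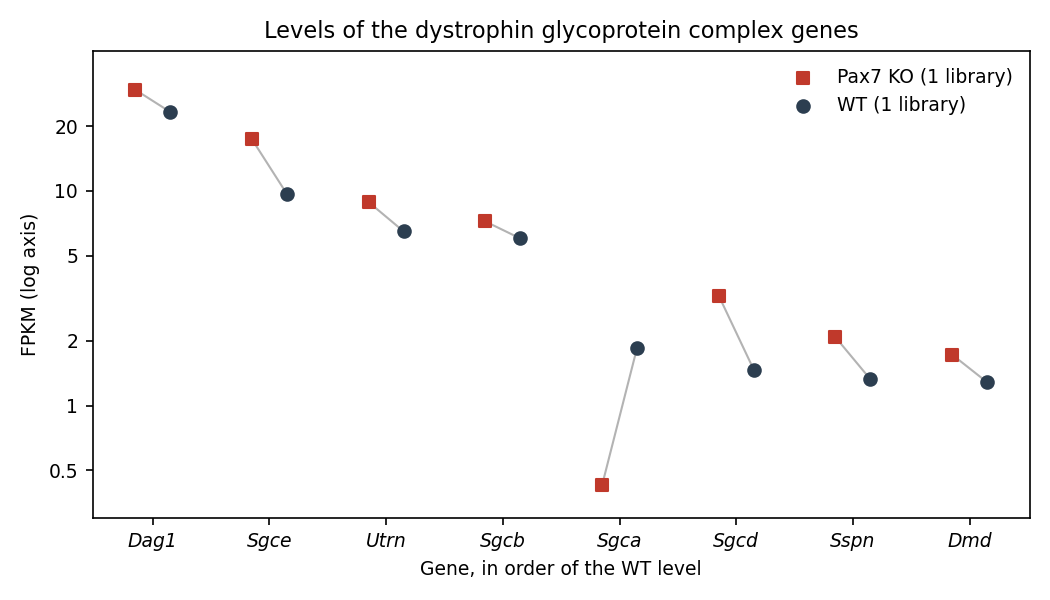
FPKM of the 8 genes on a log axis, Pax7 KO as squares and WT as circles (1 library each), with a line joining the libraries of a gene. Sgca, at 0.425 FPKM in Pax7 KO and 1.86 FPKM in WT, is the gene whose square lies below its circle.

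The order of levels was led by dystroglycan in both libraries. In Pax7 KO it ran from Dag1 through Sgce, Utrn, Sgcb, Sgcd, Sspn and Dmd to Sgca, and in WT from Dag1 through Sgce, Utrn, Sgcb, Sgca, Sgcd and Sspn to Dmd. Sgca was thus the eighth of the 8 in Pax7 KO and the fifth in WT, while the other 7 kept their order. In WT, Sgcd, Sspn and Dmd lay close together, at 1.47, 1.33 and 1.28 FPKM, and without replicates their order there has no error to be set against. The 8 genes summed to 70.6 FPKM in Pax7 KO and 51.4 FPKM in WT.

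Dystrophin, the cytoskeletal anchor (Dmd; chromosome X, 80194209 to 82450389, mm9), had a low level, at 1.73 FPKM in Pax7 KO and 1.28 FPKM in WT. These levels were above those of only 8.51% of the genes tested in Pax7 KO and 8.94% in WT. Dmd had a log2 ratio of 0.26, and of -0.17 relative to the median gene, and the counting interval without the added 1 ran from 0.25 to 0.61. Dmd makes a long muscle isoform and shorter ones from inner promoters, which the deposited gene value does not separate; with the shortest of its annotated transcripts as the length, the interval widened to -0.09 to 0.96. Another gene, Tsga8, is listed at the same locus, at the lowest listed value in both libraries.

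Utrophin, which is widely expressed and can take the place of dystrophin at the membrane (Utrn; chromosome 10, 12101986 to 12581533, mm9), was at 8.87 FPKM in Pax7 KO and 6.48 FPKM in WT. The log2 ratio of Utrn was 0.40, and -0.02 relative to the median gene, with a counting interval without the added 1 of 0.37 to 0.54. Within a library, where no scaling between libraries enters, there were 5.14 units of Utrn FPKM per unit of Dmd FPKM in Pax7 KO and 5.05 in WT. The balance of the paralogues thus differed by a factor of 1.02 between the libraries.

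Dystroglycan, the laminin receptor at the core of the complex (Dag1; chromosome 9, 108108289 to 108166067, mm9), was the most abundant member, at 29.6 FPKM in Pax7 KO and 23.3 FPKM in WT. The log2 ratio of 0.33 became -0.09 relative to the median gene. The counting interval without the added 1, from 0.28 to 0.41, lay below the 0.50 of the median gene. Per unit of Dmd there were 17.1 units of Dag1 FPKM in Pax7 KO and 18.2 in WT.

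Among the sarcoglycans, Sgca was 4.37-fold lower in Pax7 KO, Sgcb 1.20-fold higher, Sgce 1.80-fold higher and Sgcd 2.21-fold higher. Alpha-sarcoglycan (Sgca; chromosome 11, 94824136 to 94837641, mm9) was at 0.425 FPKM in Pax7 KO and 1.86 FPKM in WT. The log2 ratio of -1.004 lay just past the limit, and at -1.42 relative to the median gene; it was lower than that of all but 0.681% of the genes tested. These values rested on about 15 fragments in Pax7 KO and 81 in WT, and the log2 ratio without the added 1 was -2.13, with a counting interval of -3.08 to -1.37. Sgca is also in the lower list of the authors' deposited table, at a KO/WT fold of 0.229, which rests on the same libraries. The table lists Hils1, a spermatid linker histone gene, at the same locus, at 0.124 FPKM in Pax7 KO and at the lowest listed value in WT, and the sources used here do not say how fragments were divided between these rows. Summed with Hils1, the row was 3.38-fold lower, with a log2 ratio of -0.88, which is short of the 2-fold limit. Of the myogenic markers set beside it, Myod1 and Myf5, the determination factors, had log2 ratios of -2.27 and -2.61. Chrna1, Cdh15, Myog and Des were lower as well, with log2 ratios of -1.57, -1.38, -0.55 and -0.16. Ckm, muscle creatine kinase, was at 9.50 FPKM in Pax7 KO and 9.33 FPKM in WT.

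Epsilon-sarcoglycan (Sgce; chromosome 6, 4624350 to 4697204, mm9), the broadly expressed paralogue of Sgca and an imprinted gene, was at 17.4 FPKM in Pax7 KO and 9.67 FPKM in WT. Sgce had a log2 ratio of 0.79, and of 0.37 relative to the median gene, above those of 86.5% of the genes tested and short of 2-fold. The counting interval without the added 1 ran from 0.67 to 1.03, above the median gene. There were 40.9 units of Sgce FPKM per unit of Sgca in Pax7 KO and 5.21 in WT, a 7.86-fold difference in their balance. That difference does not depend on how the libraries were scaled to each other. It does rest on about 15 fragments of Sgca in Pax7 KO, and Hils1 at the same locus is left out of it.

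Delta-sarcoglycan (Sgcd; chromosome 11, 46792285 to 47192804, mm9), a subunit of both skeletal and smooth muscle complexes, was at 3.25 FPKM in Pax7 KO and 1.47 FPKM in WT. Sgcd had a log2 ratio of 0.78, and of 0.36 relative to the median gene. Without the added 1 it was 2.21-fold higher (log2 ratio 1.15, counting interval 0.76 to 1.52, about 168 fragments in Pax7 KO and 91 in WT), and then 1 of the 8 genes was at least 2-fold higher, against 9.93% of all genes. Smooth muscle and pericyte markers, which stand for cells that also carry Sgcd, ran from 1.03-fold (Acta2) to 4.66-fold (Kcnj8) higher in FPKM as deposited, with a median log2 ratio of 0.45. Relative to the median gene, 4 of the 9 lay below it, the contractile genes Acta2 (-0.38), Tagln (-0.28), Cnn1 (-0.28) and Myh11 (-0.25), and 5 above it.

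Beta-sarcoglycan (Sgcb; chromosome 5, 74023988 to 74038970, mm9), the partner of delta-sarcoglycan in the core of the subcomplex, was at 7.21 FPKM in Pax7 KO and 6.01 FPKM in WT. The log2 ratio of 0.23 became -0.19 relative to the median gene, and the counting interval without the added 1, from 0.09 to 0.43, lay below the median gene. There were 0.451 units of Sgcd FPKM per unit of Sgcb in Pax7 KO and 0.245 in WT.

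The make-up of the sarcoglycan transcripts differed accordingly. Sgce held 61.5% of the FPKM summed over the 4 genes in Pax7 KO and 50.9% in WT. Sgcb held 25.5% in Pax7 KO and 31.6% in WT, and Sgcd 11.5% in Pax7 KO and 7.73% in WT. Sgca held 1.503% in Pax7 KO, from about 15 fragments and without Hils1, and 9.77% in WT. The sums were 28.3 FPKM in Pax7 KO and 19.0 FPKM in WT.

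**Figure D2:**
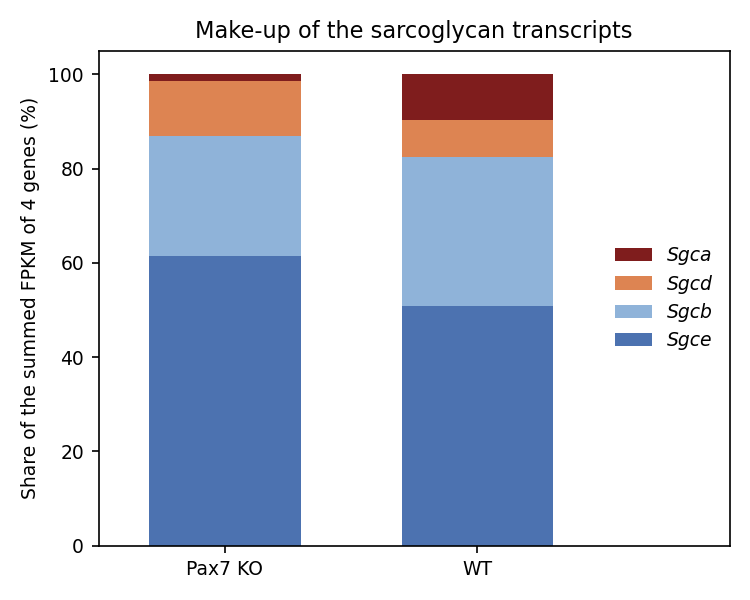
Share of the summed FPKM of Sgca, Sgcb, Sgcd and Sgce held by each gene, Pax7 KO on the left and WT on the right (1 library each). The Sgca band is 1.503% in Pax7 KO and 9.77% in WT, and the Sgce band 61.5% in Pax7 KO and 50.9% in WT.

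Sarcospan, the tetraspan-like protein that binds the sarcoglycans (Sspn; chromosome 6, 145882667 to 145913745, mm9), was at 2.08 FPKM in Pax7 KO and 1.33 FPKM in WT. With a log2 ratio of 0.41, it was at -0.01 relative to the median gene. The counting interval without the added 1, from 0.34 to 0.97, spanned the median gene. Over the 8 genes, that interval lay above the median gene in 2 (Sgcd and Sgce) and below it in 3 (Sgca, Sgcb and Dag1). It spanned the median gene in 3 (Dmd, Utrn and Sspn). The counts above and below were the same with the shortest annotated transcript as the length. No share of all genes was computed for such intervals, so these counts have no background. The intervals are narrow for genes with many fragments, and Dag1 and Sgcb lay between the quartiles of all genes. With the added 1, the signs of Dmd, Utrn, Dag1, Sgcb and Sspn turned when values were taken relative to the median gene. A direction for these genes thus depends on the scaling. Without the added 1, Sspn was above the median gene, by 0.15.

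**Figure D3:**
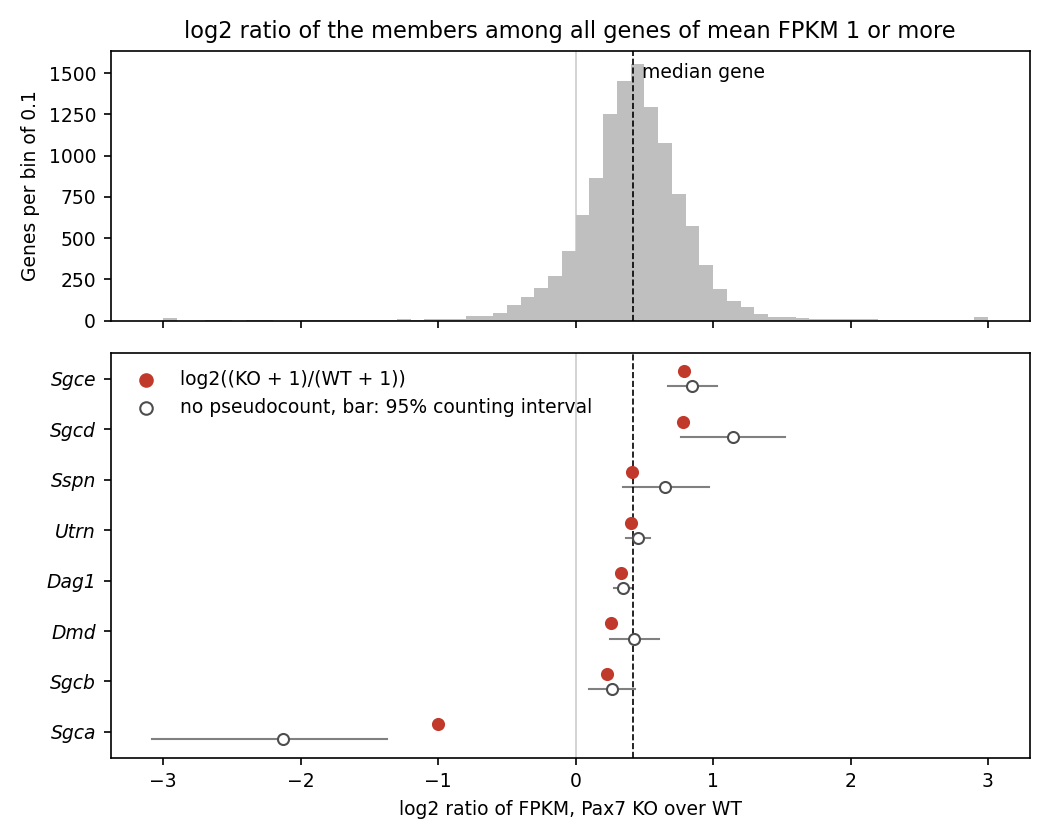
Upper panel, number of genes by log2 ratio (Pax7 KO over WT, values past 3 in size drawn at 3) for the genes of mean FPKM 1 or more; lower panel, the 8 genes, filled points with 1 FPKM added and open points without, with their 95% counting intervals as bars. The dashed line is the median gene at 0.42, with 1 FPKM added, and applies to the filled points. For the open points and bars the median gene is at 0.50, which is not drawn. Among the filled points, Sgca lies at -1.004 and Sgce and Sgcd at 0.79 and 0.78, while the other 5 lie between 0.23 and 0.41.

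Promoter windows, from 250 bases before to 50 bases after the start of a gene, were read from RefSeq (GRCm38.p6) for 7 of the 8 genes, 10 windows in all; a member may have several, and Sgce had none there. They were searched for the E-box CANNTG, the core bound by Myod1 and other basic helix-loop-helix factors, which reads the same on both strands. The letters were found in 7 of the 10 windows, against 72.3% of all 32851 windows of the same length, so the complex held them about as often as other genes. The 2 windows of Dag1 overlap and share 1 match, which is counted in both. The E-box CAGCTG was in none of the 10, against 16.3% of all windows. Those of Sgca and Sgcd are shown because these sarcoglycan genes had ratios of opposite sign, and those of Dmd and Utrn because the balance of these paralogues was nearly equal in both libraries. Capitals mark CANNTG, 5′ to 3′ on the strand of the gene.
Sgca, minus strand, chr11:94976278-94976577: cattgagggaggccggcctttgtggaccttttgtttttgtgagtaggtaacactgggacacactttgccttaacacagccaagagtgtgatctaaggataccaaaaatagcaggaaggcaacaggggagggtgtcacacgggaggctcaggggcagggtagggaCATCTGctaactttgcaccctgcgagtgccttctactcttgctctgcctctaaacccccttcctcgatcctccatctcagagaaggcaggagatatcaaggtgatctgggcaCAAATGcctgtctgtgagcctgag
Sgcd, minus strand, chr11:47379276-47379575: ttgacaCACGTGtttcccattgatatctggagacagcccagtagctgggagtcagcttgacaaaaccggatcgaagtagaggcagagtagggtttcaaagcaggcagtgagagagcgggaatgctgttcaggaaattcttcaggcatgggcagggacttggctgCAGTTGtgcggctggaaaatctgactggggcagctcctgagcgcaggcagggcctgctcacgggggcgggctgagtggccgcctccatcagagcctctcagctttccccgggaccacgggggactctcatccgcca
Dmd, plus strand, chrX:82948620-82948919: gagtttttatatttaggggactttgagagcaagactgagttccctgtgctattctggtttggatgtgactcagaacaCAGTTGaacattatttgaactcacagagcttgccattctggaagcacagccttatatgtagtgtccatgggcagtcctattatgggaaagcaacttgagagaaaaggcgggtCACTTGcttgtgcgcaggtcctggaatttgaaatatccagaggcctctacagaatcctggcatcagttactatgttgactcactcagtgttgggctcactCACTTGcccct
Utrn, minus strand, chr10:12861686-12861985: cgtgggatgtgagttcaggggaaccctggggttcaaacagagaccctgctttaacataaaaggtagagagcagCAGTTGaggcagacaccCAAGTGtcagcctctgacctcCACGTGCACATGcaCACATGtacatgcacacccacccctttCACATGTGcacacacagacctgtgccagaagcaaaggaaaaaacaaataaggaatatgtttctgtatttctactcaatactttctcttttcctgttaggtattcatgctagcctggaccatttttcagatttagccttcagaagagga
The Sgca and Sgcd windows held 2 matches each and the Dmd window 3, while the other Dmd window (chrX:85048045-85048344) held none. In the Utrn window there were 7, of which the last pair overlap each other, and 0.177% of all windows held 7 or more. The limit of 7 was taken from this window, which had the most matches of the 10. That share therefore makes no allowance for the choice and is not a test. The matches are letters in a window and do not show that any factor binds there.

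The rest of the complex was mostly at low levels. Of 11 further genes, 6 reached the mean of 1 FPKM, with a median log2 ratio of 0.20, and all 6 lay below the median gene. Of the 6, 1 was at least 2-fold lower, against 0.689% of all genes, and none at least 2-fold higher, against 5.06%. The lower one, which reached the mean only through WT, was Drp2, a dystrophin-related protein known from Schwann cells, at 0.970 FPKM in Pax7 KO and 2.95 FPKM in WT, a log2 ratio of -1.004 and a KO/WT fold of 0.329 in the authors' deposited table. In the same libraries the 4 Schwann cell markers had log2 ratios of 0.45 to 0.69, with Sox10, a glial transcription factor, at 17.4 FPKM in Pax7 KO and 12.5 FPKM in WT. Relative to the median gene these markers ran from 0.03 (Sox10) to 0.27 (S100b), and Drp2 was at -1.42. Dtna, which encodes alpha-dystrobrevin, a dystrophin-like scaffold, was at 1.74 FPKM in Pax7 KO and 1.60 FPKM in WT. Its relative Dtnb and the syntrophin gene Sntb2, an adaptor for signalling proteins, had the highest log2 ratios of the 6, 0.35 and 0.38. Among those below the limit on the level were Sgcz, another sarcoglycan gene, the syntrophin genes Sntg1 and Sntg2, and Nos1, neuronal nitric oxide synthase.

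The genes listed for the glycosylation of dystroglycan were closer to the median gene than Sgca. They include Dpm1, Dpm2, Dpm3, Dolk and Gmppb, which are not specific to dystroglycan. Of the 18 listed genes, 16 reached the mean of 1 FPKM. None was 2-fold higher, against 5.06% of all genes, or 2-fold lower, against 0.689%, so that these counts are near the background. Their median log2 ratio was 0.53, and 11 of the 16 lay above the median gene. The highest were B3galnt2, which adds a sugar to the O-mannose chain of dystroglycan, at 4.61 FPKM in Pax7 KO and 2.27 FPKM in WT, and Dolk, dolichol kinase, at 8.96 FPKM in Pax7 KO and 4.87 FPKM in WT. Among the lower ratios was that of Large, the enzyme that builds the laminin-binding sugar chain, which had a log2 ratio of 0.05 and was at 6.03 FPKM in Pax7 KO and 5.79 FPKM in WT. The row of B3galnt2 shares its locus with Tbce.

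Of 11 extracellular ligands and partners of dystroglycan, 10 reached the mean of 1 FPKM, and their median log2 ratio was 0.50. None was 2-fold higher, against 5.06% of all genes, or 2-fold lower, against 0.689%. Lama2, the laminin chain of the adult muscle basal lamina, had the lowest ratio, -0.18, at 1.59 FPKM in Pax7 KO and 1.93 FPKM in WT. Egflam, pikachurin, followed with 0.29. Lama4, a laminin chain of blood vessels, had the highest, 0.78, at 24.4 FPKM in Pax7 KO and 13.8 FPKM in WT, beside endothelial markers with a median of 0.78. Lamb2, a laminin beta chain, came next with 0.72.

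Of 10 cytoskeletal and signalling partners, 1 was at least 2-fold higher, against 5.06% of all genes, and none lower, against 0.689%, with a median log2 ratio of 0.33. A count of 1 in 10 is near that background. The higher one was Mapk12, the p38 gamma kinase that binds alpha1-syntrophin, at 11.2 FPKM in Pax7 KO and 4.52 FPKM in WT, a log2 ratio of 1.15, or 0.73 relative to the median gene and then short of 2-fold. Synm, the intermediate filament protein synemin, had the next highest ratio, 0.51. Des, desmin, was at 67.6 FPKM in Pax7 KO and 75.8 FPKM in WT and had the lowest ratio, -0.16, followed by Ank2, an ankyrin that helps to place dystrophin, with 0.05.

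The integrin route from laminin to the cytoskeleton, which runs beside the complex, gave a median log2 ratio of 0.45 over 9 genes. None of the 9 was 2-fold higher, against 5.06% of all genes, or 2-fold lower, against 0.689%. Itga7, the integrin chain of muscle that also binds laminin, had the lowest ratio of these 9, -0.34, at 34.1 FPKM in Pax7 KO and 43.6 FPKM in WT. Its partner Itgb1, which most cells express, had the highest, 0.67, at 137 FPKM in Pax7 KO and 85.6 FPKM in WT. Tln2, a talin of muscle, was at -0.07, and Lims1, an adhesion adaptor, at 0.62. Itga7 shares its locus with Mettl7b, which was under 1 FPKM in both libraries.

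**Figure D4:**
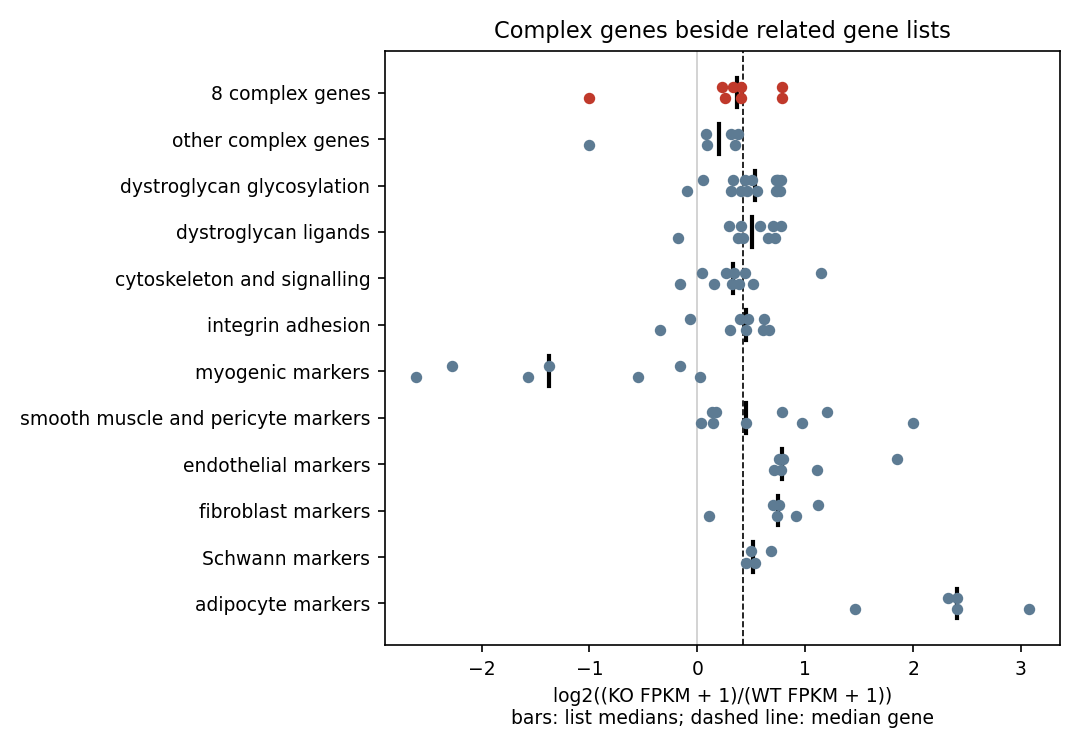
Each point is the log2 ratio (Pax7 KO over WT, 1 FPKM added) of a gene of mean FPKM 1 or more, grouped by list, with the list's median as a bar and the median gene as a dashed line at 0.42. The 8 complex genes have a median of 0.37, with Sgca at -1.004; the myogenic markers have a median of -1.38 and the adipocyte markers of 2.40.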

How the data were processed

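The authors deposited FPKM values in 1 column per library, per the file headers. Their deposited lists of 713 higher and 382 lower genes carry a fold, which divides the Pax7 KO value by the WT value, per the file headers. The build was mm9 and the tools included Cuffdiff 2.1.1, Cufflinks 2.1.1 and TopHat2 2.0.9, per the submitters' processing notes, which give no role. The lowest value of either column is 0.001. Rows of the 1 repeated symbol were summed. A gene was tested against the 2-fold limit at a mean FPKM of 1 or more. Depth came from the steps between low values of 1506 (KO) and 1551 (WT) genes with 1 GENCODE M21 transcript; the fit was loose, with mean cosines of 0.51 and 0.46, where exact multiples give 1. It puts the worth of 1 fragment 0.26 higher in KO on the log2 scale, and the most frequent log2 ratio among 2240 low genes, which needs no length, was 0.27. Fragments per gene used the longest transcript, and intervals are exact (Clopper-Pearson). Starts of the table's loci were read as counted from 0, since end minus start equalled the RefSeq gene length in 7162 of 20652 loci and was 1 short in 455. In the tables of related genes, the 2 highest and 2 lowest ratios of each list were named, apart from items that are not reported here; other genes, Myf5, Myod1, Ckm, Acta2, Kcnj8 and Sox10 among them, were chosen after their values were seen. The members and lists were chosen with earlier results of these data known. Symbols were matched through RefSeq synonyms where needed. Values were computed with scipy 1.17.1, pandas 2.3.3 and numpy 2.4.6 under Python 3.11.15 and drawn with matplotlib 3.10.9. The alternatives tried were other pseudocounts, centring or upper-quartile scaling, other limits on level and fold, the authors' lists, and Sgca summed with Hils1.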

Additional observations from a re-analysis of the deposited data

How the results depend on the processing

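The count of 8 complex genes at least 2-fold lower was 1 (Sgca) with pseudocounts of 0.5 and 0.1 or none, after centring and with upper-quartile scaling. It was also 1 without a filter and at a 1.5-fold limit. These settings moved Sgca further past the limit, loosened the limit or dropped the filter, so they could not have removed it. The share of all genes was 0.703% without a pseudocount, 1.45% after centring and 1.43% at the 1.5-fold limit. No share was computed for pseudocounts of 0.5 and 0.1, for the unfiltered genes, for the higher level limit or after upper-quartile scaling. The counts at those settings, lower or higher, thus have no background. The authors' deposited lower list also held Sgca, and 2.49% of all genes. It is not a 2-fold list, since it holds Myog at a KO/WT fold of 0.562. The count was 0 at a mean FPKM of 5 or more, which left 4 of the 8 genes and removed Sgca. It was also 0 when Sgca was summed with Hils1, an alternative chosen after seeing the data. The count at least 2-fold higher was 0, but 1 (Sgcd) with a pseudocount of 0.1 and 1 (Sgcd) without one. Without a pseudocount, 9.93% of all genes were 2-fold higher, so that 1 of 8 is near the background. At the 1.5-fold limit the count was 2 (Sgcd and Sgce, against 30.0% of all genes). The median log2 ratio of 0.37 became -0.055 after centring on the median gene and -0.047 with upper-quartile scaling. No direction of a gene past 2-fold or of a list median past 1 in size reversed. No paired analysis was possible because each genotype has 1 library. Leaving out a library was not possible for the same reason. Depth limits Sgca most, with about 15 fragments in Pax7 KO; genes below a mean FPKM of 1, such as Sgcz, rest on fewer fragments per length still.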

Other observations

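Genes of other muscular dystrophies and of membrane repair lie beside the complex, and those given here were chosen after their values were seen. The collagen VI genes, whose products surround the muscle basal lamina and are made by fibroblasts, were higher in Pax7 KO. Col6a1 was at 112 FPKM in Pax7 KO and 49.4 FPKM in WT, Col6a2 at 95.5 FPKM in Pax7 KO and 42.0 FPKM in WT, and Col6a3 at 59.6 FPKM in Pax7 KO and 27.2 FPKM in WT. Their log2 ratios were 1.16, 1.16 and 1.10, or 0.74, 0.74 and 0.68 relative to the median gene, short of 2-fold. The fibroblast markers of the same libraries had a median log2 ratio of 0.75, and their part in these values was not tested.

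Of the membrane repair genes, dysferlin (Dysf) was at 13.1 FPKM in Pax7 KO and 7.14 FPKM in WT, a log2 ratio of 0.80, whereas its relative myoferlin (Myof) was at 24.2 FPKM in Pax7 KO and 22.6 FPKM in WT, a log2 ratio of 0.10. The annexin genes Anxa1, Anxa2 and Anxa6 had log2 ratios of 0.93, 1.08 and 0.35. Relative to the median gene these were 0.51, 0.66 and -0.07, all short of 2-fold. Trim72, a repair protein of striated muscle, was at 0.957 FPKM in Pax7 KO and 1.19 FPKM in WT. Ano5 and Capn3, linked to limb-girdle dystrophy, were below 1 FPKM in both libraries, and Capn3 shares its locus with 3 other rows.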
